A study of Mus musculus with 4 samples.

Results

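This comparison sets colon tissue taken on day 100 of azoxymethane/dextran sulfate sodium (AOM/DSS) treatment beside untreated day 0 tissue, in mice whose label gives the genotype Card9-/-. AOM is a carcinogen that acts on the colon and DSS is a detergent-like polymer that injures its lining, and used in turn they give colitis-associated tumours. The treated mice received 10 mg/kg AOM once and then, 5 days later, the first of 3 rounds of 2% DSS (36 to 50 kDa) lasting 7 days each. All mice were C57BL/6, and a wild-type (WT) pair was treated and sampled in the same way. Each of the 4 groups was a single RNA-seq library, and the sources used here give neither the age, the Card9 allele, the number of mice behind a library nor the site sampled along the colon. Depth alone set which genes were measured: those whose larger read count in the labelled knockout pair was 50 or more. These were 15900 of the 44788 in the table. The gene lists and the genes named were chosen with earlier results of these data known. With 1 library a group nothing could be tested for replicate error; the interval in parentheses after each fold is a 95% counting interval, which covers the sampling of reads and nothing else. Levels are in CPM, read counts scaled to the size of each library, and are listed in the order untreated WT, AOM/DSS WT, untreated labelled knockout and AOM/DSS labelled knockout.

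Card9, the adaptor that links myeloid C-type lectin receptors to NF-kB (chromosome 2, 26352187 to 26360945 of GRCm38), was read in both libraries labelled knockout. Its levels were 1.75, 5.32, 3.18 and 7.73 CPM, and within the labelled knockout pair it was 2.43-fold higher (1.86 to 3.23) after AOM/DSS. Transcript was therefore present where the label gives a knockout, and which exons the reads covered was not analysed here. The groups are called by their labels throughout, and no direction is credited to loss of Card9. The libraries held 23022885 to 27706567 counts. The treated library labelled knockout stood apart in composition: its 10 most abundant genes took 6.52% of counts against 13.5% to 14.3% in the others, the ribosomal RNA row Rn18s-rs5 took 2.86% against 5.2% to 7.11%, and mitochondrial genes took 1.56% against 2.48% to 3.9%. With library totals in place of the TMM scaling used here, the median log2 ratio of all genes is 0.3 in place of 0.03.

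The 2 untreated libraries differed in markers of position along the gut. Posterior Hox genes, which mark the distal end of the body axis, had a summed level of 136, 142, 515 and 341 CPM. Of these, Hoxb13 stood at 0.0397, 0.0459, 330 and 109 CPM. Hoxd13 was at 0, 0.0459, 12.7 and 87.1 CPM. Both were at or next to 0 in the WT libraries alone. Anterior genes of the same family went the other way, with Hoxb6 at 75.1, 48.6, 9.76 and 1.42 CPM. Hoxb8 was at 30.4, 16.6, 2.99 and 0.663 CPM. Fat tissue markers were also uneven: Adipoq, the fat cell hormone adiponectin, was at 54.8, 17.1, 0.506 and 0.947 CPM. Within the labelled knockout pair some such markers differed too: of anterior Hox genes 0 of 12 were called higher and 8 lower (list median -1.22), beside 0 higher and 0 lower of 16 in the WT pair (median -0.31). Posterior Hox genes in the labelled knockout pair had no common direction, with 4 of 11 called higher and 2 lower (list median 0.07). Of other position genes 4 of 18 were called higher and 11 lower (list median -1.22), a list that shares Cdx1 and Cdx2 with the differentiation factors described below. Position along the gut cannot be told apart from the genotype label or from treatment here. The treated library labelled knockout was for this reason also set against untreated WT tissue, a baseline chosen after the data were seen, and many of the gene groups are given against both. The comparisons share that treated library, so they are side by side values and not independent support for each other.

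As background, the colon lining is renewed from stem cells at the base of its crypts, which divide under Wnt signals carried by beta-catenin and TCF/LEF factors. Daughter cells climb the crypt, leave the cell cycle and mature into absorptive colonocytes, mucus-making goblet cells, hormone-making enteroendocrine cells and chemosensory tuft cells. In AOM/DSS tumours beta-catenin is often stabilised by mutation, which holds cells in a crypt-like, dividing state. Around them, inflammation brings in neutrophils, macrophages and T cells, whose interferon gamma induces GTPases and antigen presentation in many cell types.

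A gene was called higher or lower when its ratio was at least 2-fold on the log2(CPM + 1) scale. In the labelled knockout pair 2245 genes (14.1% of those measured) were higher and 2532 (15.9%) lower. In the WT pair 627 (4.08%) of 15356 were higher and 596 (3.88%) lower. Against untreated WT tissue, the treated library labelled knockout had 1997 of 16082 genes (12.4%) higher and 2268 (14.1%) lower, and it shared 1546 of the higher and 1589 of the lower with the labelled knockout pair. A list of genes is described by how many of its measured members were called and by the median of their log2 ratios, which over all genes measured was 0.03. Large differences were common: 194 genes were at least 10-fold higher and 147 at least 10-fold lower. Of the genes measured, 94 had no read in the untreated library and 9 had none in the treated library. Such genes were measured only through their count in the other library. In whole tissue, fewer cells of a type and less RNA per cell cannot be told apart, and this holds for every group below.

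**Figure D1:**
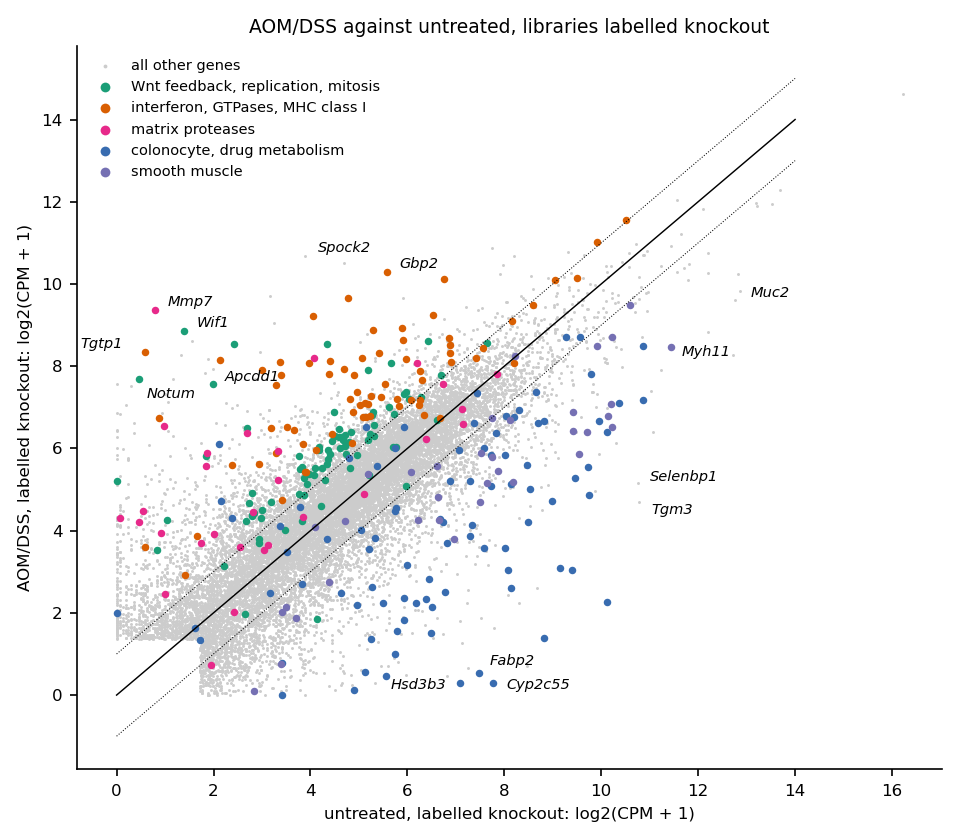
Each point is a gene whose larger count in the labelled knockout pair was 50 or more, with log2(CPM + 1) in the untreated library across and in the AOM/DSS library upward, and with colours for 5 groups of lists. Dotted lines mark 2-fold; 2245 genes lie above the upper line and 2532 below the lower one.

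Genes of the Wnt feedback loop were higher as a group. Of the Wnt target and inhibitor list, 20 of 26 were called higher and 1 lower (list median 2.07), beside 0 higher and 4 lower of 22 in the WT pair (median -0.41) and 18 higher and 1 lower of 26 against untreated WT (median 2.15). Sp5, a transcription factor switched on directly by beta-catenin, was at 0.159, 0.413, 0 and 36.0 CPM and had no read in the untreated library labelled knockout, which puts it at least 261-fold higher by the floor of 3 counts. Apcdd1, a membrane inhibitor of Wnt reception, was at 7.46, 5.69, 2.95 and 190 CPM (64.3-fold higher, 50.3 to 83.6). The treated library labelled knockout was the only high one for both genes. Nkd1, which restrains dishevelled, was at 25.5, 27.4, 19.2 and 373 CPM (19.4-fold higher, 17.6 to 21.5), and the secreted antagonist Dkk2 was 21.4-fold higher (16.4 to 28.5). Tnfrsf19, a receptor of crypt stem cells, was 16.4-fold higher (13.6 to 19.9) here while in the WT pair it was 6.16-fold lower (4.25 to 9.23).

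Lef1, the nuclear partner of beta-catenin that is scarce in resting colon epithelium, was at 1.07, 1.15, 1.06 and 18.2 CPM (17.2-fold higher, 11.4 to 27.4). The ubiquitin ligases Rnf43 and Znrf3, which strip Wnt receptors from the cell surface, were 5.46-fold higher (5.12 to 5.82) and 3.47-fold higher (3.13 to 3.84). Nkd2 was the exception, 6.34-fold lower (4.98 to 8.15). Among Wnt ligands and receptors, 3 of 20 were called higher and 3 lower (list median -0.08), shares near those of all genes measured. The ligands Wnt6 and Wnt10a were at 1.19, 0.871, 0.644 and 37.2 CPM and 0.0793, 0.0917, 0.0460 and 21.7 CPM, so that each was near the floor in all libraries but the treated one labelled knockout. The receptor Fzd5 was 4.06-fold lower (3.78 to 4.37). Ctnnb1, which encodes beta-catenin itself, was at 867, 922, 871 and 1015 CPM, inside the 2-fold bounds. Ephb2, another target of the pathway, was at 113, 99.0, 97.2 and 102 CPM, nearly level in the 4 libraries.

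Upstream stretches of 2 of these genes that hold a TCF/LEF match follow, from RefSeq on GRCm38.p6, 5′ to 3′ on the gene's strand. Capitals mark the matches (the letters CTTTGAA, the letters CTTTGAT, the letters CTTTGTA or the letters CTTTGTT, on either strand). Lef1 has 4 listed starts, and the stretch with the most matches is shown.
Sp5, chr2:70474693-70474832, plus strand: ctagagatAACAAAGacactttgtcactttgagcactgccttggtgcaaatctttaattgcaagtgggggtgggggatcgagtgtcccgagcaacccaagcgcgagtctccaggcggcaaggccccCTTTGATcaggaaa
Lef1, chr3:131156064-131156203, plus strand: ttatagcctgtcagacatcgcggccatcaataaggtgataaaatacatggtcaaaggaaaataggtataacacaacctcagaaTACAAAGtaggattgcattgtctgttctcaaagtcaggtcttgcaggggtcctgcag
Such a match lay within 250 bases before to 50 after any listed start in 5 of 18 (27.8%) Wnt list genes with a promoter in the table, against 14.1% of all genes measured and 18.9% of all genes in the table. With 1 start for each gene the shares were 11.1% and 11.6%, so the Wnt list then did not exceed the genes measured. The letters were found in 0 of 11 (0%) crypt stem cell promoters and in 6 of 10 (60.0%) promoters of class II antigen presentation genes. A match is a run of letters and not a shown binding site.

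Crypt stem cell genes were less uniform. Of that list 8 of 19 were called higher and 3 lower (list median 0.75), beside 8 higher and 3 lower of 19 against untreated WT (median 0.83). Mex3a, an RNA-binding protein of slow-cycling progenitors, was 11.8-fold higher (9.61 to 14.7) at 2.86, 3.21, 4.42 and 52.2 CPM. Smoc2, a secreted matrix protein of the stem cell zone, was 4.65-fold higher (4.32 to 5.01) and Ascl2, the stem cell transcription factor, was 2.57-fold higher (2.16 to 3.07). Others of the list did not reach 2-fold: Sox9 had a log2 ratio of 0.75, Lrig1 of -0.31 and Slc12a2 of 0.32. The list also holds genes of mature tissue that were lower, such as the vitamin D receptor Vdr (10.3-fold lower, 9.80 to 10.9) and the water channel Aqp4, which was at 44.7, 72.4, 433 and 68.6 CPM and so high in the untreated library labelled knockout alone.

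Genes of the dividing cell were mostly higher, and none of those listed was called lower. In the mitosis list 25 of 28 were called higher and 0 lower (list median 1.56), beside 0 higher and 0 lower of 28 in the WT pair (median -0.53) and 12 higher and 0 lower of 28 against untreated WT (median 0.99). In the DNA replication list 19 of 28 were called higher and 0 lower (list median 1.15), beside 0 higher and 4 lower of 28 in the WT pair (median -0.63) and 7 higher and 0 lower of 28 against untreated WT (median 0.85). The counts were smaller against untreated WT, in which each division gene named here was higher than in the untreated library labelled knockout. Bub1, a spindle checkpoint kinase, was at 10.6, 8.48, 5.89 and 29.3 CPM (4.97-fold higher, 4.13 to 6.03). Nusap1 and Prc1, which bundle spindle microtubules, were 4.43-fold higher (3.89 to 5.05) and 3.8-fold higher (3.46 to 4.19), and Foxm1, the transcription factor of the mitotic genes, was 3.62-fold higher (3.23 to 4.05). In all of these the treated library labelled knockout was the highest of the 4. Mki67, the usual proliferation marker, was at 304, 179, 199 and 376 CPM and stayed under 2-fold. Of the replication genes, Chaf1a, which lays histones on new DNA, was 3.14-fold higher (2.82 to 3.49), the helicase subunits Mcm3 and Mcm4 were 3.05-fold higher (2.83 to 3.29) and 2.95-fold higher (2.73 to 3.18), and the flap nuclease Fen1 was 2.97-fold higher (2.70 to 3.27).

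Starts of 2 mitosis genes, chosen after the motif shares were seen, are shown with capitals on the CHR element (TTTGAA) and the CCAAT box (CCAAT), both strands searched. CHR shares letters with the TCF/LEF form CTTTGAA, so some runs match both.
Prc1, chr7:80294366-80294475, plus strand: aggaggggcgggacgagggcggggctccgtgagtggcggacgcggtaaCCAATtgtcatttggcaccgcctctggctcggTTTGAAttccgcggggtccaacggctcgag
Cdk1, chr10:69352913-69353022, minus strand: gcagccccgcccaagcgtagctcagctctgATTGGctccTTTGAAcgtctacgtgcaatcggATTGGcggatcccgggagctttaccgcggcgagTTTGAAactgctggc
The CHR letters were found in 18 of 24 (75%) mitosis promoters against 14.5% of genes measured, and the CCAAT box in 19 of 24 (79.2%) against 42.3%. The CCAAT box was as common in other lists, such as 15 of 17 (88.2%) promoters of endoplasmic reticulum stress genes. E2F letters (TTTCCCGC, TTTGGCGC, TTTCGCGC or TTTGCCGC) were found in 12 of 23 (52.2%) replication promoters against 4.44%. Over every gene in the promoter table the shares were 20.2% for CHR, 41.1% for the CCAAT box and 2.60% for E2F.

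Cell cycle regulators were mixed: 7 of 23 were called higher and 2 lower (list median 0.52). Ccne1, the cyclin of entry into S phase, was 4.94-fold higher (4.12 to 5.97) and Ccnd1, a cyclin of growth signals, 2.16-fold higher (2.06 to 2.27). Inhibitors went both ways. Cdkn2a, which encodes p16 and Arf and is all but silent in normal colon, was at 0.0397, 0.0917, 0 and 9.85 CPM, while Cdkn2b beside it on the chromosome was at 43.2, 29.0, 61.4 and 7.35 CPM (8.36-fold lower, 7.26 to 9.64). Cdkn1a, the p21 inhibitor of mature cells, was 2.76-fold lower (2.63 to 2.89). Of the p53 target list 3 of 19 were called higher and 2 lower (list median 0.15), shares near those of all genes measured.

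Supply genes for growth were higher in part. Of nucleotide synthesis genes 9 of 26 were called higher and 0 lower (list median 0.64), of ribosome assembly genes 7 of 24 were called higher and 0 lower (list median 0.74), and of amino acid supply genes 10 of 23 were called higher and 2 lower (list median 0.67). The serine synthesis pathway was higher at each of its steps: Phgdh, the entry enzyme, was at 12.0, 9.40, 7.92 and 58.0 CPM (7.32-fold higher, 6.26 to 8.61). Psat1 was at 14.4, 14.8, 10.6 and 72.4 CPM (6.84-fold higher, 5.97 to 7.87), and Psph was 3.73-fold higher (3.19 to 4.38). Mthfd2, which passes the carbon from serine to nucleotides in mitochondria, was 4.46-fold higher (3.88 to 5.14), and the large subunit of ribonucleotide reductase, Rrm1, 4.21-fold higher (3.93 to 4.51). The cystine carrier Slc7a11 was at 1.19, 17.7, 2.49 and 36.6 CPM, high in both treated libraries. Against these, the carrier Slc6a14 was 13.4-fold lower (12.6 to 14.3) and the cysteine-making enzyme Cth 6.57-fold lower (5.76 to 7.52). Glycolysis and hypoxia genes showed no common direction: 4 of 27 were called higher and 3 lower (list median 0.14), shares near those of all genes measured. The lactate carrier Slc16a3 was 7.67-fold higher (6.45 to 9.17), while the glycolytic enzymes Hk1 and Pfkl were 2.52-fold lower (2.42 to 2.63) and 2.42-fold lower (2.30 to 2.55).

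Genes of fetal and repairing gut epithelium were higher in number. Of that list 14 of 25 were called higher and 1 lower (list median 1.49), beside 10 higher and 0 lower of 24 in the WT pair (median 0.89) and 18 higher and 2 lower of 25 against untreated WT (median 1.46). Ly6a, the Sca-1 antigen of regenerating crypts, was at 380, 395, 240 and 1209 CPM (5.03-fold higher, 4.89 to 5.18). Clu, a marker of revival stem cells, was at 52.6, 180, 191 and 538 CPM (2.82-fold higher, 2.73 to 2.92), and Anxa1 was 3.12-fold higher (2.96 to 3.28). Plaur and Il33 were high in both treated libraries, Plaur at 11.2, 52.2, 9.02 and 60.3 CPM. Il33 was at 7.86, 20.8, 4.0 and 22.5 CPM. Ctgf (-0.25) and Cyr61 (-0.36), classical YAP targets, had log2 ratios close to 0, and Sprr2a1 was 3.65-fold lower (3.54 to 3.76). Among imprinted and oncofetal genes, 6 of 15 were called higher and 2 lower (list median 0.41): the fetal non-coding RNA H19 was at 0.714, 6.01, 0.276 and 97.3 CPM (352-fold higher, 162 to 960), while Igf2, its neighbour, had a log2 ratio of 0.15.

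Keratin genes of both layered and simple epithelium were among the higher ones. Of the list of squamous and simple keratins with other squamous genes 12 of 18 were called higher and 0 lower (list median 1.79), beside 1 higher and 0 lower of 11 in the WT pair (median 0.2) and 13 higher and 1 lower of 18 against untreated WT (median 1.88). In the labelled knockout pair 6 of the 24 listed were below the count minimum. The higher members include Krt18, Krt7 and Krt23 of simple epithelium. Of layered epithelium, Krt6a was at 0, 0.0917, 0.0460 and 16.0 CPM. Krt14 was at 0.119, 2.16, 0.552 and 17.0 CPM. Krt13 was at 1.90, 1.83, 1.93 and 24.9 CPM. All 3 were highest in the treated library labelled knockout. Squamous lining lies at the anal end of the colon, and its master factor Trp63 was at 0.119, 0.0459, 0.0460 and 0.410 CPM. The list's summed level was 8588, 10651, 8572 and 7710 CPM, most of it from keratins that simple epithelium also makes, and the part played by anal lining was not tested. Krt7, found in simple ducts too, was 4.73-fold higher (4.56 to 4.91). Of tight junction and adhesion genes 4 of 24 were called higher and 5 lower (list median -0.23), shares near those of all genes measured. Cldn4 was at 54.0, 76.5, 34.8 and 442 CPM (12.7-fold higher, 11.8 to 13.7), and Cldn15, which forms sodium pores, was 6.31-fold lower (5.86 to 6.79).

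Growth factor genes gave a split picture. Of the epidermal growth factor family and its feedback genes 5 of 20 were called higher and 3 lower (list median 0.44): the ligand Areg was 3.35-fold higher (2.91 to 3.87), the MAP kinase phosphatases Dusp4 and Dusp6 6.97-fold higher (5.78 to 8.47) and 2.76-fold higher (2.55 to 2.98), and the receptors Erbb2 and Erbb3 2.75-fold lower (2.63 to 2.87) and 2.97-fold lower (2.83 to 3.12). In the TGF-beta and BMP list 7 of 27 were called higher and 6 lower (list median 0.46). The activin chains Inhba and Inhbb were 17.3-fold higher (9.50 to 35) and 10.6-fold higher (7.65 to 15.2), Bmp7 was 4.59-fold higher (4.12 to 5.14), and Bmp3, a BMP of mature epithelium, was at 107, 110, 46.9 and 5.46 CPM (8.60-fold lower, 7.31 to 10.2). Of the Notch list 1 of 17 was called higher and 2 lower (list median 0.02), and of the list for epithelial to mesenchymal transition 4 of 13 were called higher and 2 lower (list median 0.07); the Notch shares lie at or below those of all genes measured. Vim, the intermediate filament of stromal cells, was 2.01-fold higher (1.95 to 2.08), and the transition factors Snai1 (-0.53), Twist1 (-0.17) and Zeb1 (-0.85) had log2 ratios under 1 in size.

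**Figure D2:**
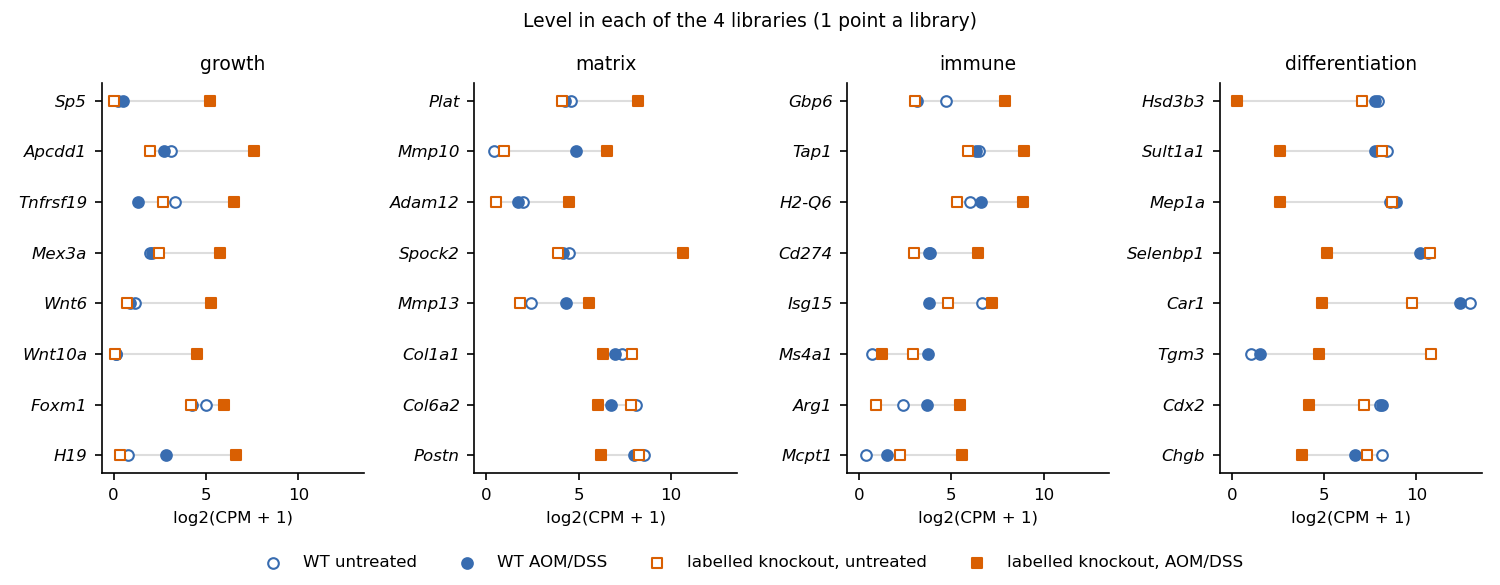
Level, as log2(CPM + 1), of 8 genes from each of 4 roles (rows), with 1 point for each of the 4 libraries; open symbols are untreated and filled ones AOM/DSS. The treated library labelled knockout is the highest for every growth gene drawn and for every immune gene drawn but Ms4a1, and the lowest for every differentiation gene drawn but Tgm3.

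Matrix genes divided by role: enzymes that cut matrix were mostly higher, and collagens were mostly lower or level. Of matrix proteases and their inhibitors 18 of 29 were called higher and 1 lower (list median 1.88), beside 12 higher and 0 lower of 27 in the WT pair (median 0.77) and 18 higher and 0 lower of 28 against untreated WT (median 1.85). Mmp10, a stromelysin of wound edges, was at 0.317, 27.8, 0.967 and 92.8 CPM (96.0-fold higher, 62.7 to 155). Mmp13, a collagenase, was at 4.40, 19, 2.58 and 46.6 CPM (18.1-fold higher, 13.8 to 24.0). The macrophage elastase Mmp12 was at 1.43, 2.52, 0.368 and 17.6 CPM (47.7-fold higher, 24.1 to 111). Mmp10 and Mmp13 were raised in both treated libraries, while Mmp12 was far higher in the one labelled knockout. Plat, tissue plasminogen activator, was at 23, 18.2, 15.8 and 293 CPM (18.5-fold higher, 16.6 to 20.7), far above the other 3. The gelatinase Mmp9 was 22.1-fold higher (16.9 to 29.2), the membrane protease Adam8 15.0-fold higher (12.5 to 18.2), and Mmp14, the membrane enzyme that activates other Mmps, 3.75-fold higher (3.56 to 3.96). Their inhibitor Timp1 was at 2.10, 12.1, 2.35 and 11.9 CPM (5.07-fold higher, 3.78 to 6.93), close to equal in the treated libraries.

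Mmp7, Mmp3, Mmp10, Mmp12 and Mmp13 lie in 1 cluster on chromosome 9, and their upstream stretches are printed. They were chosen after the motif shares were seen. Mmp8, also of the protease list and higher (log2 ratio 4.24), is not shown. Capitals mark the AP-1 letters (TGANTCA, both strands).
Mmp7, chr9:7691980-7692089, plus strand: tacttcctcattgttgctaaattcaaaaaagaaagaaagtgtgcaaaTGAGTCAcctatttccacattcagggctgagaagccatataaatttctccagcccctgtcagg
Mmp13, chr9:7272404-7272513, plus strand: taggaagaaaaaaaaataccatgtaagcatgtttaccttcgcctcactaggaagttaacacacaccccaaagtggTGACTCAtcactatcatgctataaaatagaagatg
Mmp12, chr9:7347264-7347373, plus strand: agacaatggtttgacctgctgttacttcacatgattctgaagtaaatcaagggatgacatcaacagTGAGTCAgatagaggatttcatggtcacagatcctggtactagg
Mmp3, chr9:7445712-7445821, plus strand: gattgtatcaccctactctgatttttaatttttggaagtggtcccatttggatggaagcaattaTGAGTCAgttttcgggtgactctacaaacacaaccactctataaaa
Mmp10, chr9:7502232-7502341, plus strand: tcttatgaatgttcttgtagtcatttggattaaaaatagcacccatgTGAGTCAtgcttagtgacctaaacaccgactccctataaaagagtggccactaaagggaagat
Each of the 5 holds the letters within the last 110 bases before the start, but given how they were chosen this is not a share. Over the whole list the share was smaller. The AP-1 letters were found in 6 of 20 (30.0%) promoters of the protease list, against 6.84% of genes measured and 8.97% of all genes in the table. The fetal and repair list had a like share, 5 of 16 (31.2%).

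Collagens of fibres and sheets were lower or level, with a pair of exceptions: 2 of 17 were called higher and 8 lower (list median -0.85), beside 0 higher and 6 lower of 17 in the WT pair (median -0.77) and 2 higher and 9 lower of 18 against untreated WT (median -0.96). Col1a1, of type I collagen, was at 162, 126, 237 and 79.9 CPM (2.97-fold lower, 2.83 to 3.12). Col6a2, of beaded filaments, was at 276, 106, 228 and 64.1 CPM (3.55-fold lower, 3.37 to 3.74). Col8a1 was at 56.5, 5.09, 35.5 and 4.96 CPM, low in both treated libraries. Col3a1, the other main fibre collagen, had a log2 ratio of -0.54. The 2 higher members were Col17a1, an epithelial anchoring collagen (11.7-fold higher, 6.22 to 24.9), and Col18a1, the source of endostatin (2.43-fold higher, 2.29 to 2.57). Basement membrane genes were mixed: 4 of 18 were called higher and 2 lower (list median 0.32). The epithelial laminin chains Lama1 (6.62-fold higher, 5.55 to 7.95), Lama5 (3.52-fold higher, 3.37 to 3.67) and Lama3 (2.43-fold higher, 2.30 to 2.56) were higher, and Col4a6 and Col4a5, chains found around muscle, were 4.70-fold lower (3.62 to 6.16) and 2.57-fold lower (2.24 to 2.95).

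Matrix-bound signal proteins went both ways. Spock2, a matrix proteoglycan, was at 21.0, 16.7, 13.9 and 1627 CPM (117-fold higher, 104 to 131). Of its list 6 of 27 were called higher and 10 lower (list median -0.16). The WT pair had 2 of 26 called higher and 7 lower (median -0.51). In the labelled knockout pair Thbs1 was 5.53-fold higher (5.23 to 5.86) and Thbs2 3.33-fold higher (3.04 to 3.64). Postn, a protein of fibroblasts, was 4.35-fold lower (4.15 to 4.56), Tnxb 5.75-fold lower (5.39 to 6.14) and Sparcl1 5.13-fold lower (4.92 to 5.35). In the WT pair their log2 ratios were -0.51, -1.63 and -1.14. Of fibroblast markers 6 of 22 were called higher and 9 lower (list median -0.34). The WT pair had 4 of 22 called higher and 8 lower (median -0.55). In the labelled knockout pair Dpt was 5.43-fold lower (5.01 to 5.88) and the hedgehog target Gli1 7.00-fold lower (5.40 to 9.19). Both were lower in the WT pair too, with log2 ratios of -2.06 and -3.0. The general markers Pdgfra (-0.47), Pdgfrb (-0.22) and Dcn (-0.12) had log2 ratios between -1 and 1 in the labelled knockout pair. The muscle layer makes several of these proteins, and its markers were lower too, as given below; their part in the collagen values was not tested. Vessel genes were mostly level: 4 of 25 were called higher and 2 lower (list median -0.05), with Pecam1 at 60.3, 79.8, 68.1 and 63.8 CPM. Kdr was at 53.1, 29.8, 39.5 and 32.5 CPM. The share called higher was near the 14.1% of all genes measured, and the share called lower was below their 15.9%. The higher ones were Selp (12.0-fold higher, 8.59 to 17.3), Vcam1 (5.98-fold higher, 5.26 to 6.81), Icam1 (5.35-fold higher, 4.85 to 5.90) and Angpt2 (6.73-fold higher, 5.44 to 8.42). Inflamed vessels show Selp, Vcam1 and Icam1 to leukocytes, and Angpt2 is a vessel-loosening ligand. In the WT pair 4 of 25 were also called higher, among them Selp (log2 ratio 2.66), Vcam1 (1.43) and Icam1 (1.07).

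Immune genes were higher in most groups. General leukocyte genes gave 7 of 18 called higher and 0 lower (list median 0.94), beside 11 higher and 0 lower of 18 in the WT pair (median 1.08). Their summed level was 410, 867, 639 and 1375 CPM. Ptprc, the CD45 antigen, was at 35.9, 76.6, 54.9 and 99.9 CPM. The part of leukocyte number in the values below was not tested. Of neutrophil genes 18 of 20 were called higher and 0 lower (list median 3.37), beside 19 higher and 0 lower of 21 in the WT pair (median 3.59) and 19 higher and 0 lower of 20 against untreated WT (median 3.47). S100a9, a calcium-binding protein of neutrophil cytoplasm, was at 0.278, 183, 0.598 and 67.3 CPM. Ltf, lactoferrin of their granules, was at 0.436, 4.63, 0.184 and 52.2 CPM. Padi4, which modifies histones in neutrophil traps, was at 0.436, 2.93, 0.184 and 53.1 CPM (289-fold higher, 112 to 1060). S100a9 was highest in treated WT, and Ltf and Padi4 in the treated library labelled knockout. Ly6g, the surface marker of mouse neutrophils, was at 0.0397, 30.0, 54.7 and 53 CPM and so was level within the labelled knockout pair but not within the WT pair.

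Macrophage genes gave 18 of 28 called higher and 3 lower (list median 1.31), beside 4 higher and 6 lower of 28 in the WT pair (median 0.14) and 18 higher and 3 lower of 28 against untreated WT (median 1.6). Chil3, the secreted lectin Ym1, was at 0.0793, 45.9, 0.0460 and 114 CPM. Arg1, which splits arginine, was at 4.28, 11.9, 0.921 and 43.7 CPM (47.5-fold higher, 30.6 to 77.9). Msr1, a scavenger receptor, was at 5.04, 8.30, 4.37 and 36.6 CPM (8.38-fold higher, 6.79 to 10.4). Chil3 was 2482-fold higher (445 to 98052), a ratio that rests on 1 count in the untreated library labelled knockout. Ccr2, the receptor of incoming monocytes, was 5.43-fold higher (4.49 to 6.61), and its ligand Ccl2 25.8-fold higher (16.4 to 43.1). The lower members were Cd163, Folr2 and Retnla. Cd163, a haemoglobin scavenger receptor, was at 16.7, 8.80, 4.69 and 1.17 CPM (4.02-fold lower, 2.73 to 6.03). Folr2 was at 5.40, 0.550, 2.76 and 0.505 CPM (5.47-fold lower, 3.11 to 10.2). Other markers of mature macrophages were higher or level: log2 ratios were 1.26 for Csf1r, 1.75 for C1qb, 0.57 for Mrc1 and -0.37 for Lyve1. Mast cell and eosinophil genes gave 13 of 17 called higher and 2 lower (list median 1.91), or a median of 1.84 with members at 0 set to the floor. Of the 24 listed, 7 were below the count minimum. Cpa3, a mast cell carboxypeptidase, was at 0.238, 0.459, 0.460 and 10.5 CPM (22.8-fold higher, 12.2 to 47.9). Alox15, a lipid oxygenase made by eosinophils and some macrophages, was at 2.42, 0.183, 1.01 and 159 CPM (157-fold higher, 104 to 251). Kit, the receptor of mast cells and of the pacemaker cells of Cajal, was 3.06-fold lower (2.83 to 3.31).

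T cell genes gave 12 of 22 called higher and 0 lower (list median 1.1), beside 7 higher and 0 lower of 22 in the WT pair (median 0.77) and 17 higher and 0 lower of 22 against untreated WT (median 1.42). The receptor chain Cd3e was at 3.69, 4.68, 3.91 and 5.05 CPM. Cd4 was at 8.29, 10.7, 13.9 and 16.0 CPM. Both genes stayed short of 2-fold, while Cd8b1 was 6.71-fold higher (4.50 to 10.4) and the kinase Zap70 3.89-fold higher (3.19 to 4.79). Killer cell genes gave 10 of 14 called higher and 0 lower (list median 1.44). Of the 21 listed, 7 were below the count minimum. In the WT pair 1 of 8 was called higher and 0 lower (median 0.38). Perforin, Prf1, was at 0.952, 1.24, 0.598 and 6.06 CPM (10.1-fold higher in the labelled knockout pair, 5.78 to 19.4). Ifng, interferon gamma itself, was at 0.0397, 0.367, 0 and 3.19 CPM (at least 23.1-fold higher). Regulatory T cell and checkpoint genes gave 14 of 22 called higher and 0 lower (list median 1.64). The WT pair had 4 of 16 called higher and 0 lower (median 0.25). Some scarce members of the killer cell and checkpoint lists were measured only through the treated library labelled knockout, which favours a call of higher. The ligand PD-L1, Cd274, was at 12.6, 13.1, 6.90 and 85.6 CPM (12.4-fold higher, 10.5 to 14.7), its receptor Pdcd1 was 7.07-fold higher (4.60 to 11.4), and the regulatory factor Foxp3 was at 0.952, 1.05, 1.01 and 6.31 CPM (6.23-fold higher, 4.01 to 10.2).

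Genes induced by interferon gamma were higher in all but 2 of those measured. Of the GTPases and their regulators 21 of 23 were called higher and 0 lower (list median 3.32), beside 2 higher and 2 lower of 21 in the WT pair (median 0.15) and 21 higher and 0 lower of 23 against untreated WT (median 2.82). These GTPases load onto the vacuoles of intracellular microbes. Iigp1 was at 20.1, 25, 15.6 and 598 CPM (38.3-fold higher, 34.4 to 42.8). Igtp was at 45.5, 43.1, 26.2 and 804 CPM (30.7-fold higher, 28.2 to 33.4). Gbp6 was at 25.4, 7.70, 7.04 and 241 CPM (34.2-fold higher, 29.1 to 40.4). In each of these only the treated library labelled knockout was high. The summed level of the list was 800, 743, 657 and 6441 CPM. Tgtp1 and Tgtp2 are near-identical copies whose reads may have been divided between them, and their values are uncertain singly. Irf1 (0.88) and Irf8 (0.06) were the members inside the 2-fold bounds.

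Starts of GTPase genes are printed below because most hold the same letters, marked in capitals: the interferon-stimulated response element (GAAANNGAA, both strands).
Tgtp1, chr11:48992247-48992356, minus strand: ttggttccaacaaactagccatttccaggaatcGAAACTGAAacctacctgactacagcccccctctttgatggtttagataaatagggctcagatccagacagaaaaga
Igtp, chr11:58199446-58199555, plus strand: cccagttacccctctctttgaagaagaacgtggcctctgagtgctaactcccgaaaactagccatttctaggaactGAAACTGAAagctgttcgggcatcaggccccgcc
Irgm1, chr11:48871421-48871530, minus strand: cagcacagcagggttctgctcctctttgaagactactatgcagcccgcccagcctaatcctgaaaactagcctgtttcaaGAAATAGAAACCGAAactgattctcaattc
Gbp2, chr3:142620553-142620662, plus strand: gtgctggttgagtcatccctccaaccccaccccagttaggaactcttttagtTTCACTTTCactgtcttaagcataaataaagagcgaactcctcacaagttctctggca
Gbp3, chr3:142559934-142560043, plus strand: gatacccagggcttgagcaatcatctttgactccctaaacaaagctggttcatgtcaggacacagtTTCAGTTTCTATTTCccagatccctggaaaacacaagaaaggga
The letters were found in 10 of 13 (76.9%) GTPase list promoters and in 12 of 20 (60.0%) promoters of the type I interferon list, against 8.96% of genes measured and 9.76% of all genes in the table.

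Genes of the type I interferon response were higher in this pair with a baseline that differed by label. Of these 27 of 29 were called higher and 0 lower (list median 1.89), beside 0 higher and 24 lower of 29 in the WT pair (median -2.01) and 6 higher and 1 lower of 29 against untreated WT (median 0.49). Their summed level was 3495, 941, 1256 and 5141 CPM. The untreated WT library was thus nearer the treated library labelled knockout than the others were. Ifit2, which blocks translation of viral RNA, was at 59.0, 17.2, 14.7 and 268 CPM (18.2-fold higher, 16.3 to 20.4). Isg15, a ubiquitin-like tag, was at 101, 13, 27.2 and 145 CPM (5.34-fold higher, 4.90 to 5.82). For Isg15 and Ifit2 both untreated WT and treated labelled knockout tissue were high.

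Antigen presentation genes were higher, in class I with no member lower. Of class I genes 16 of 22 were called higher and 0 lower (list median 1.44), beside 0 higher and 0 lower of 22 in the WT pair (median -0.13) and 14 higher and 0 lower of 22 against untreated WT (median 1.26). Nlrc5, the transactivator of class I genes, was at 33.2, 33.9, 19.8 and 223 CPM (11.3-fold higher, 10.2 to 12.5). Tap1, the peptide pump, was at 89.5, 78.8, 58.3 and 484 CPM (8.30-fold higher, 7.84 to 8.80). Psmb8, an immunoproteasome subunit, was at 93.4, 81.2, 62.0 and 288 CPM (4.64-fold higher, 4.38 to 4.92). H2-Q6 (12.3-fold higher, 11.5 to 13.2) and H2-Q7 (7.58-fold higher, 6.98 to 8.24) are similar copies and uncertain singly. The start of the light chain gene B2m holds a match to an NF-kB site and one to the interferon-stimulated response element side by side, both in capitals.
B2m, chr2:122147537-122147576, plus strand: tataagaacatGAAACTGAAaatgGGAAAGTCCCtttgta
The NF-kB letters were found in 9 of 19 (47.4%) class I list promoters against 12.5% of genes measured and 9.55% of all in the table, and in 10 of 17 (58.8%) promoters of the NF-kB feedback list. Of class II genes 6 of 13 were called higher and 1 lower (list median 0.92): H2-DMa, a peptide loader, was 4.06-fold higher (3.65 to 4.52), the transactivator Ciita 2.49-fold higher (2.27 to 2.73), and the B cell chaperone H2-Ob 5.80-fold lower (4.62 to 7.35).

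B cell and plasma cell genes were lower: 2 of 28 were called higher and 20 lower (list median -1.6), beside 20 higher and 0 lower of 28 in the WT pair (median 2.18) and 8 higher and 4 lower of 23 against untreated WT (median 0.58). Their summed level was 5478, 6069, 9682 and 2592 CPM, dominated by the antibody transporter Pigr of epithelium and by Igkc. Pax5, the B cell factor, was at 0.873, 16.5, 11.0 and 2.02 CPM. Fcer2a, the CD23 antigen, was at 0.555, 5.78, 7.50 and 0.316 CPM. Both were high in the untreated library labelled knockout and in treated WT tissue, and low in the other 2. Colon tissue holds lymphoid follicles, and whether a follicle lay in a sample was not tested. Antibody genes are families whose reads can be shared, so Igkc (3.96-fold lower, 3.86 to 4.06) and Igha (7.12-fold lower, 5.38 to 9.57) are uncertain.

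Cytokine and chemokine genes were more often higher than lower. Of the interleukin 1 family 10 of 17 were called higher and 1 lower (list median 2.1), beside 10 higher and 0 lower of 17 in the WT pair (median 1.37) and 12 higher and 0 lower of 17 against untreated WT (median 2.04). Il1b was at 1.51, 156, 1.89 and 53.3 CPM (28.2-fold higher, 20.7 to 39.5). Il1a was at 0, 16.3, 0.184 and 18.5 CPM (100-fold higher, 39.0 to 370). Both were high in treated WT tissue too, whereas Il18 was at 8.33, 23.1, 61.1 and 19.1 CPM, highest in the untreated library labelled knockout. Of the interleukin 6 and related cytokine genes 7 of 11 were called higher and 0 lower (list median 2.02), or a median of 1.88 with members at 0 set to the floor. The other 21 of the 32 listed were below the count minimum, and some scarce members were measured only through the treated library. In the WT pair 5 of 9 were called higher and 0 lower (median 1.53). Il11, a stromal cytokine, was at 0.357, 15.7, 0.460 and 8.14 CPM. Osm, oncostatin M of myeloid cells, was at 0.0397, 12.3, 0.184 and 4.99 CPM. Of their receptors and signal genes 10 of 29 were called higher and 4 lower (list median 0.26), with the feedback inhibitor Socs3 at 14.8, 97.6, 13 and 124 CPM (9.58-fold higher, 8.49 to 10.8). The interleukin 22 decoy Il22ra2 was at 6.47, 3.07, 12.8 and 0.0947 CPM (135-fold lower, 45.6 to 657). Of CXC chemokine genes 12 of 19 were called higher and 2 lower (list median 1.93), or a median of 1.83 at the floor. In the WT pair 10 of 17 were called higher and 0 lower (median 1.07). Cxcl2, which calls neutrophils, was at 0, 49.5, 0.0460 and 20.1 CPM. Cxcl10, which calls T cells, was at 3.61, 3.48, 4.23 and 73.9 CPM (17.4-fold higher, 14.2 to 21.7), and Cxcl14 was 7.77-fold higher (6.95 to 8.72). Cxcl2 was high in both treated libraries and Cxcl10 in the one labelled knockout alone. Of CC chemokine genes 10 of 21 were called higher and 2 lower (list median 0.39), beside 9 higher and 2 lower of 17 in the WT pair (median 1.01). Ccl28, a mucosal chemokine of epithelium, was 4.17-fold lower (3.86 to 4.51).

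Of lectin receptors and their signalling partners upstream and downstream of Card9, 6 of 17 were called higher and 2 lower (list median 0.58): Clec4e, which binds fungal and mycobacterial glycolipid, was at 0.0793, 20, 0.184 and 15.9 CPM. Clec7a, the beta-glucan receptor Dectin-1, was at 4.32, 5.41, 4.56 and 29.6 CPM (6.49-fold higher, 5.27 to 8.07). Clec4n, Dectin-2, was at 3.97, 5.64, 3.64 and 23.1 CPM (6.35-fold higher, 5.03 to 8.11). Clec4e was high in both treated libraries and the Dectins in the one labelled knockout. The partners of Card9 in its complex, Bcl10 and Malt1, had log2 ratios of -0.14 and 0.7, and the kinase Syk of 0.13. Of NF-kB feedback genes 7 of 20 were called higher and 1 lower (list median 0.52), beside 10 higher and 0 lower of 20 in the WT pair (median 1.01). Of complement and coagulation genes 15 of 26 were called higher and 0 lower (list median 1.04). Of inflammasome and pattern sensor genes 7 of 29 were called higher and 5 lower (list median 0.1). Complement factor C2 was 16.7-fold higher (14.2 to 19.8) and C3 3.71-fold higher (3.56 to 3.86). Nlrp3, the myeloid sensor, was 10.7-fold higher (7.14 to 16.7), while the epithelial sensor Nlrp6 was 4.47-fold lower (4.26 to 4.70) and the gasdermins Gsdmc2, Gsdmc3 and Gsdmc4 were 6.36-fold lower (5.92 to 6.83), 18.1-fold lower (16.1 to 20.4) and 9.66-fold lower (9.15 to 10.2).

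Lipid mediator genes had no common direction. Of the prostanoid list 6 of 21 were called higher and 5 lower (list median -0.01). Hpgd, which degrades prostaglandin E2 and is lost in many colon tumours, was at 164, 139, 117 and 12.8 CPM (9.07-fold lower, 8.17 to 10.1), and Ptgs2, which makes its precursor, had a log2 ratio of 0.77. Pla2g2a, a secreted phospholipase of Paneth cells, was at 0.357, 5.14, 2.53 and 228 CPM (90.0-fold higher, 69.1 to 120); the C57BL/6 strain is known for a defective copy of this gene. Irg1, the itaconate enzyme of macrophages, was at 0.238, 62.1, 1.15 and 55.2 CPM, near equal in the treated libraries. Duox2 and Duoxa2, which make peroxide at the epithelial surface, were 2.42-fold higher (2.35 to 2.50) and 3.39-fold higher (3.11 to 3.71), and Cybb, the phagocyte oxidase, 4.30-fold higher (3.9 to 4.75).

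**Figure D3:**
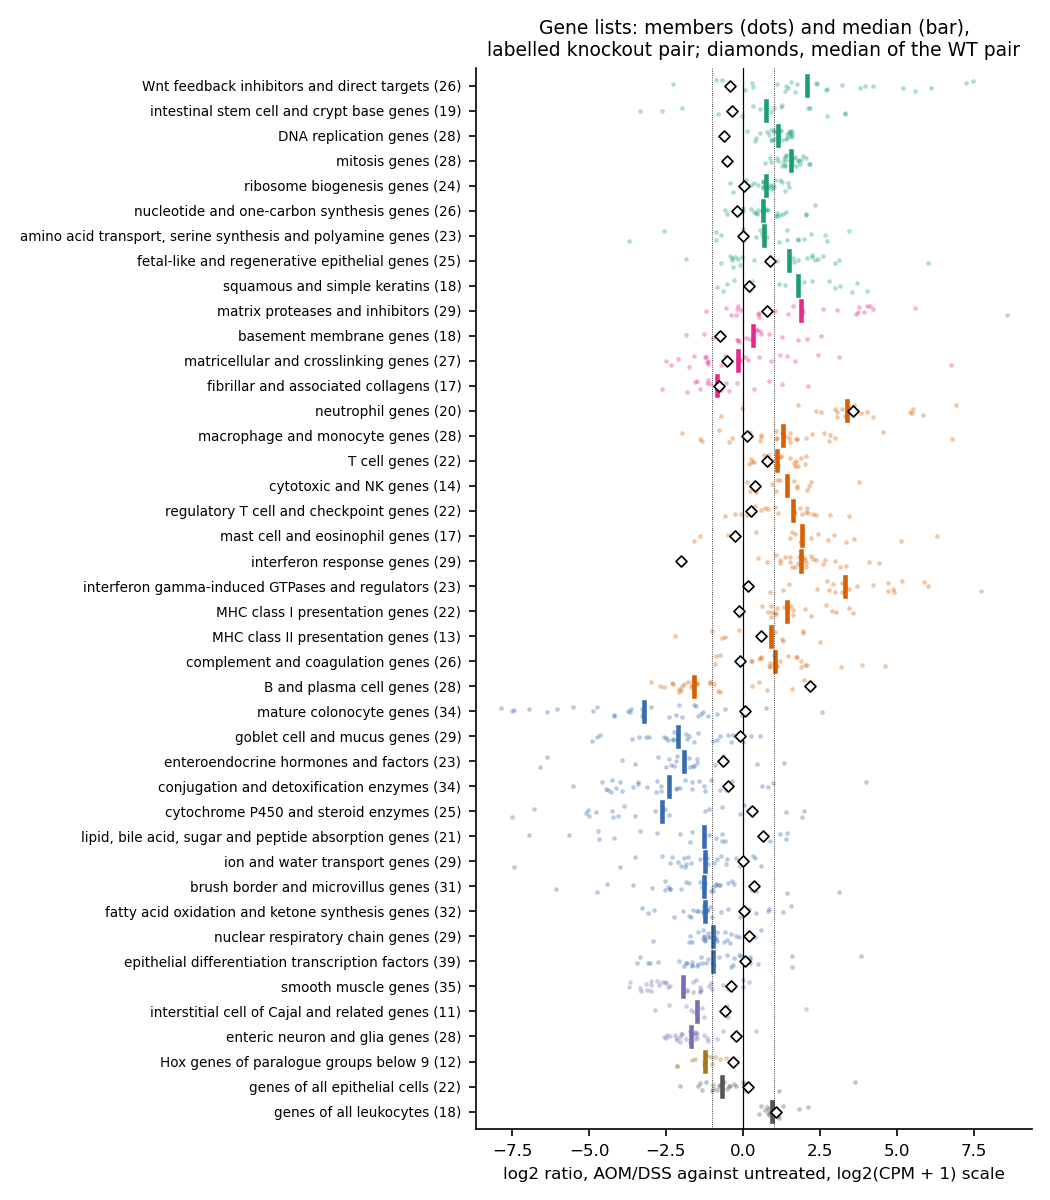
Log2 ratio of AOM/DSS to untreated on the log2(CPM + 1) scale for 42 gene lists, with a dot for each measured member and a bar at the median in the labelled knockout pair, and a diamond at the median in the WT pair. Neutrophil genes have medians of 3.37 and 3.59 in the labelled knockout and WT pairs, and colonocyte genes of -3.23 and 0.06.

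Products of Paneth cells, the defence cells of small intestinal crypts that normal mouse colon lacks, gave 16 of 22 called higher and 6 lower (list median 4.59), or a median of 4.5 with members at 0 untreated set to the floor of 3 counts, beside 19 higher and 2 lower of 22 against untreated WT (median 4.8). In the WT pair 9 of the list were measured, with 4 called higher and 2 lower (median 0.19). Members with no read in the untreated library labelled knockout were measured only through the treated one and could be called only higher. Defa20, a defensin, was at 0, 0.0459, 0 and 63.3 CPM (at least 458-fold higher in the labelled knockout pair). Habp2, a serine protease, was at 0, 0.0917, 0 and 55.8 CPM (at least 404-fold higher). Defensin copies are near identical and uncertain singly. Pnliprp2, a pancreatic-type lipase, was at 1.11, 3.76, 2.67 and 287 CPM (108-fold higher, 83.2 to 142). Genes of pancreatic acinar cells had a summed level of 38, 54.9, 231 and 254 CPM, and only 3 of the 20 listed reached the count minimum and are described. Pnliprp1, another pancreatic-type lipase, was at 0.0397, 0.229, 1.24 and 206 CPM (166-fold higher, 114 to 252). Cela1, an elastase, was at 25.9, 48.6, 205 and 38.4 CPM (5.33-fold lower, 5.01 to 5.69). Clps, colipase, was at 6.94, 0.825, 15.2 and 6.47 CPM. Below the minimum, Cpa1 was at 0.0397, 0.183, 0.460 and 0 CPM. Prss2 was at 0.0793, 0.0917, 0.506 and 0.221 CPM. The acinar genes thus had no common direction, and the part of pancreatic tissue in these values was not tested. Markers of small intestine were low in the treated library, with Sis at 22, 29.7, 0.736 and 0 CPM. Apoa4 was at 0, 4.04, 0.322 and 0 CPM. Fabp6 was at 3.97, 17.9, 2.35 and 0.379 CPM. Mptx1, a pentraxin in the list, was at 3.25, 1.93, 1272 and 68.6 CPM, high in the untreated library labelled knockout. Other defence proteins gave 13 of 22 called higher and 8 lower (list median 1.91), beside 14 higher and 1 lower of 20 in the WT pair (median 2.17). The lectin Itln1 was at 1.19, 1.19, 6.21 and 206 CPM (33.1-fold higher, 27.9 to 39.5).

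Genes of mature colonocytes were lower in nearly every case. Of that list 1 of 34 was called higher and 29 lower (list median -3.23), beside 6 higher and 1 lower of 34 in the WT pair (median 0.06) and 6 higher and 21 lower of 34 against untreated WT (median -2.15). Tmigd1, an adhesion protein of mature cells, was at 123, 205, 52.9 and 1.01 CPM (52.4-fold lower, 36.9 to 76.9). Sult1a1, a sulfotransferase, was at 339, 211, 279 and 5.05 CPM (55.3-fold lower, 47.3 to 65.1). Slc37a2, a sugar phosphate carrier, was at 109, 59.0, 568 and 7.58 CPM (74.9-fold lower, 65.9 to 85.5). In these the treated library labelled knockout was the lowest of the 4 by a wide gap. The sodium channel subunit Scnn1g was the exception, at 0.159, 14.4, 3.45 and 25.3 CPM (7.34-fold higher, 5.79 to 9.43), highest in the 2 treated libraries. General epithelial markers differed less: 2 of 22 were called higher and 6 lower (list median -0.69), with a summed level of 17877, 21759, 20593 and 13947 CPM. Krt8 was at 4324, 5338, 4394 and 3602 CPM. Cdh17, an intestinal cadherin, was at 655, 808, 635 and 545 CPM. Epcam, present on all gut epithelium, was at 906, 983, 1647 and 632 CPM (2.60-fold lower, 2.56 to 2.65). The part of epithelial cell number in the values of mature genes was not tested.

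Some baselines differed so much by label that the pair's ratio depends on them. Tgm3, a transglutaminase, was at 1.07, 1.88, 1751 and 25.1 CPM, and was lower within the labelled knockout pair (69.8-fold lower, 65.0 to 74.9) while higher than both WT libraries. Insl5, a hormone of distal colon, was at 2.38, 2.75, 151 and 0.568 CPM. Aqp8, a water channel, was at 37.1, 51.1, 448 and 1.61 CPM. Insl5 and Aqp8 were lowest in the treated library labelled knockout, by a gap that was far wider within that pair. Other genes lay within 2-fold in the 3 remaining libraries and far lower in the treated one labelled knockout: Selenbp1 was at 1551, 1156, 1724 and 34.8 CPM (49.6-fold lower, 46.7 to 52.7). Mep1a, a brush border protease, was at 372, 466, 405 and 5.05 CPM (80.2-fold lower, 68.6 to 94.4). Hsd3b3, a steroid dehydrogenase, was at 237, 215, 134 and 0.221 CPM (607-fold lower, 294 to 1512).

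**Figure D4:**
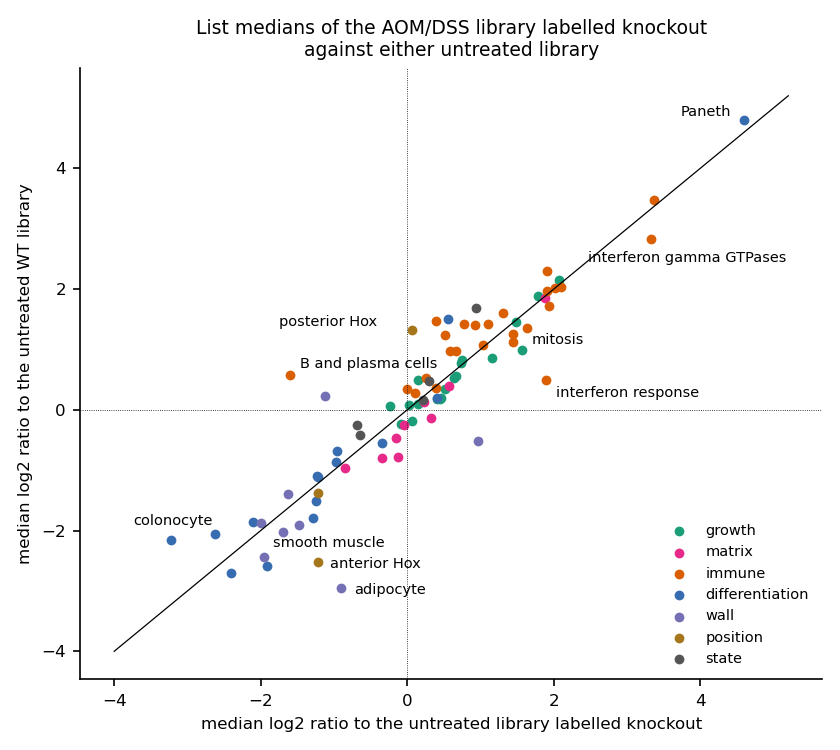
Each point is a gene list, with the median log2 ratio of the treated library labelled knockout to the untreated library labelled knockout across and to untreated WT upward. B cell and plasma cell genes lie at -1.6 across and 0.58 upward, while smooth muscle genes are low on both axes, at -1.95 and -2.44.

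Transport and enzyme groups of the mature cell were lower together. Ion and water transport genes gave 0 of 29 called higher and 18 lower (list median -1.23), beside 3 higher and 17 lower of 29 against untreated WT (median -1.1): Slc5a8, the butyrate carrier, was 16.7-fold lower (15.4 to 18.2), Hsd11b2, which guards the aldosterone receptor, 11.8-fold lower (11.1 to 12.6), and the chloride channels Clcn2 and Cftr 5.18-fold lower (4.95 to 5.42) and 4.49-fold lower (4.15 to 4.86). Absorption genes gave 3 of 21 called higher and 12 lower (list median -1.28), with the bile acid exporter Slc51a at 215, 311, 20 and 0.158 CPM (127-fold lower, 53.9 to 393). The gluconeogenic enzyme Pck1 was at 215, 108, 183 and 2.68 CPM (68.0-fold lower, 54.9 to 85.4). Cytochrome P450 and steroid genes gave 3 of 25 called higher and 17 lower (list median -2.62), beside 2 higher and 15 lower of 27 against untreated WT (median -2.05): Cyp2c65 was at 268, 267, 46.1 and 0.379 CPM (122-fold lower, 69.3 to 236). Cyp4f14 was at 191, 282, 268 and 7.20 CPM (37.2-fold lower, 32.6 to 42.6). Conjugation and export genes gave 1 of 34 called higher and 27 lower (list median -2.4), beside 1 higher and 31 lower of 36 against untreated WT (median -2.7). Abcb1a, the drug efflux pump, was at 769, 480, 502 and 25.4 CPM (19.7-fold lower, 18.4 to 21.2), and Ces2c, a carboxylesterase, 23.6-fold lower (21.1 to 26.3). Abcc2, an export pump of liver, was the only member higher, at 4.01, 3.03, 3.31 and 68.5 CPM (20.7-fold higher, 16.3 to 26.5). Ugt1a1 and Ugt1a6a share exons and their split is uncertain; they were 23.8-fold lower (19 to 30.2) and 18.9-fold lower (15.7 to 23).

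Fuel use genes were lower. Colonocytes burn butyrate in mitochondria, and of fatty acid oxidation and ketone genes 2 of 32 were called higher and 20 lower (list median -1.22): Ppara, the nuclear receptor that induces such genes, was at 73.4, 86.8, 37.6 and 4.20 CPM (8.95-fold lower, 7.44 to 10.8), and Acadm, which opens medium chain oxidation, 3.45-fold lower (3.23 to 3.69). Of nuclear respiratory chain genes 0 of 29 were called higher and 14 lower (list median -0.96), beside 0 higher and 3 lower of 29 against untreated WT (median -0.68). Brush border genes gave 2 of 31 called higher and 18 lower (list median -1.25), beside 0 higher and 16 lower of 31 against untreated WT (median -1.51); Alpi, intestinal alkaline phosphatase, was at 24.2, 89.6, 32.1 and 0.537 CPM (59.8-fold lower, 37.1 to 103). Cdhr2, which links microvilli, was at 945, 1201, 893 and 165 CPM (5.41-fold lower, 5.25 to 5.58), while the vitamin B12 receptor Cubn was 13.2-fold higher (9.47 to 18.9).

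Transcription factors of gut identity were among the lower genes. Of the differentiation factors 3 of 39 were called higher and 18 lower (list median -0.97). Cdx2, the intestinal master factor, was at 258, 279, 143 and 16.9 CPM (8.50-fold lower, 7.75 to 9.33). Cdx1 was at 193, 238, 262 and 72.4 CPM (3.62-fold lower, 3.45 to 3.8). Isx, which controls vitamin A uptake, was at 242, 222, 69.3 and 9.28 CPM (7.47-fold lower, 6.59 to 8.49). Klf4, a factor of cell cycle exit, was at 381, 337, 581 and 137 CPM (4.25-fold lower, 4.10 to 4.40). All 4 were lowest in the treated library labelled knockout. Gata5 went the other way, at 1.07, 7.06, 1.75 and 37.9 CPM (21.7-fold higher, 15.7 to 30.8), and the factors Elf3 (0.1) and Gata6 (-0.4) had log2 ratios between -1 and 1. CDX letters (TTTATNG) were found in 7 of 23 (30.4%) colonocyte promoters against 8.76% of genes measured and 12.5% of all in the table. They were as common in lists that were mostly higher, with 7 of 15 (46.7%) Paneth and 8 of 19 (42.1%) neutrophil promoters. HNF4 letters (CAAAGTCC) were found in 3 of 21 (14.3%) promoters of the P450 list against 1.78% of genes measured and 1.63% of all, and in 2 of 13 (15.4%) collagen promoters.

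**Figure D5:**
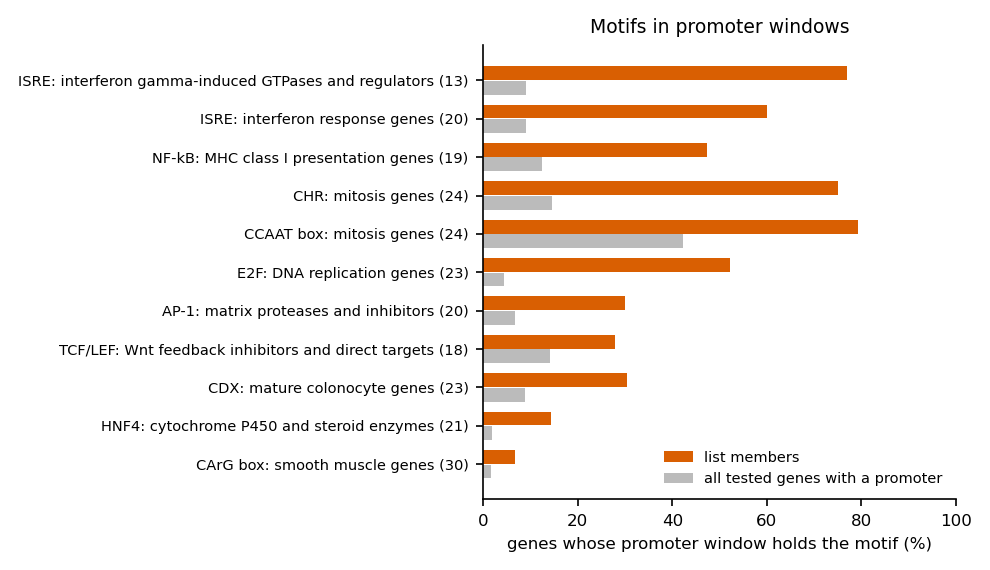
Share of promoters, in percent, that hold each motif in the list it was searched for, beside the share in all measured genes with a promoter in the table. The interferon-stimulated response element is in 76.9% of the GTPase list against 8.96% of measured genes.

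Genes of secretory cells were lower. Of goblet cell genes 0 of 29 were called higher and 20 lower (list median -2.1), beside 5 higher and 1 lower of 29 in the WT pair (median -0.11) and 1 higher and 18 lower of 29 against untreated WT (median -1.86). B3gnt6, which builds the core of mucin sugar chains, was at 45.5, 42.1, 42.8 and 0.631 CPM (67.7-fold lower, 43.6 to 111). Klk1, a kallikrein, was at 1136, 674, 929 and 30.2 CPM (30.8-fold lower, 28.9 to 32.9). Fcgbp, a mucus protein, was at 1775, 1991, 4737 and 454 CPM (10.4-fold lower, 10.2 to 10.6). Atoh1, the factor that sets secretory fate, was at 69.0, 39.2, 72.4 and 11.9 CPM (6.07-fold lower, 5.42 to 6.81). Clca1, another mucus protein, had a log2 ratio of 0.55 and Spink4 of -0.38, so not every goblet gene was lower. Muc6, a mucin of stomach glands, was at 3.85, 0.871, 0.598 and 19.5 CPM (32.7-fold higher, 19 to 61.7). Enteroendocrine genes gave 1 of 23 called higher and 19 lower (list median -1.92), beside 1 higher and 20 lower of 24 against untreated WT (median -2.58): Pyy was at 12.7, 16.6, 69.4 and 3.66 CPM (19-fold lower, 15.7 to 23.1). Chgb, a granule protein, was at 275, 100, 158 and 13 CPM (12.2-fold lower, 11.0 to 13.5). Sst, somatostatin, was at 23, 11.3, 13.6 and 1.17 CPM (11.6-fold lower, 8.24 to 16.8). Tuft cell genes gave 2 of 19 called higher and 6 lower (list median -0.34), with the channel Trpm5 at 15.5, 3.21, 18.4 and 0.442 CPM (41.6-fold lower, 24.5 to 76.7). The kinase Dclk1 was at 25, 12.5, 31.3 and 4.39 CPM (7.13-fold lower, 5.94 to 8.62). The actin binder Avil, also a tuft gene, was 9.44-fold higher (8.29 to 10.8). In the WT pair 1 of 21 tuft genes was called higher and 8 lower (median -0.89). Enteroendocrine genes of the WT pair gave 1 of 23 called higher and 9 lower (median -0.66).

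Genes of the gut wall were lower too. Of smooth muscle genes 0 of 35 were called higher and 29 lower (list median -1.95), beside 0 higher and 3 lower of 35 in the WT pair (median -0.38) and 0 higher and 31 lower of 35 against untreated WT (median -2.44), with a summed level of 15657, 12244, 15694 and 3539 CPM. Myh11, smooth muscle myosin, was at 3464, 2424, 2772 and 350 CPM (7.92-fold lower, 7.77 to 8.09). Actg2, enteric actin, was at 767, 753, 1131 and 109 CPM (10.4-fold lower, 10.0 to 10.8). Des, desmin, was at 736, 647, 1182 and 134 CPM (8.83-fold lower, 8.55 to 9.13). For each of these the other 3 libraries lay within 2-fold of each other. The CArG box, the site of serum response factor, was found in 2 of 30 (6.67%) muscle promoters against 1.62% of genes measured and 1.81% of all in the table, and in 3 of 18 (16.7%) Wnt list promoters. Neuron and glia genes gave 0 of 28 called higher and 25 lower (list median -1.69), beside 0 higher and 27 lower of 31 against untreated WT (median -2.02). Genes of Cajal pacemaker and related cells gave 1 of 11 called higher and 8 lower (list median -1.48). How much of the outer wall each sample held was not tested. The collagen list above had a smaller median (-0.85) than the muscle list, and the fibroblast list was mixed (-0.34). In the WT pair the collagen median (-0.77) was further from 0 than the muscle median (-0.38).

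Clock genes are given because the hour of sampling is not in the sources used here. Of these 1 of 18 was called higher and 8 lower (list median -0.64): Dbp, a clock output factor, was at 41.1, 29.1, 59.6 and 3.44 CPM (17.3-fold lower, 14.2 to 21.2). Nfil3, which opposes it, was at 12.7, 38.7, 5.43 and 33.6 CPM (6.19-fold higher, 5.11 to 7.55), and the core factor Arntl had a log2 ratio of 0.2. Stress genes of the endoplasmic reticulum gave 0 of 21 called higher and 2 lower (list median 0.21), and immediate early genes gave 4 of 23 called higher and 4 lower (list median 0.3). The immediate early shares lie near those of all genes measured.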

How the data were processed

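Colon RNA from 4 groups of C57BL/6 mice was sequenced, 1 library each. The values are whole-number read counts per gene that the authors deposited in 1 table of 44788 gene rows. The submitters' processing notes name GRCm 38 (mm 10); no aligner, counter or strand setting is named in the sources used here, and 27 rows carry symbols turned into dates. CPM was computed from these counts by TMM scaling over all 4 libraries (edgeR 4.0.16 in R 4.3.3). Genes whose larger count in a pair was 50 or more were described, with log2 ratios of CPM + 1 computed from the deposited counts. Intervals are exact Clopper-Pearson 95% intervals of the ratio of 2 counts, and a gene at 0 was set to a floor of 3 counts. No test was run, since each group has 1 library. Scripts were checked on simulated counts. Alternatives were other scalings (DESeq2 1.42.0 size factors, upper quartile, library totals, TMM over 2 libraries), pseudocounts and count minimums, thinning both libraries to the smaller total and leaving out abundant genes. Using untreated WT as baseline was added after the data were seen. The 84 gene lists and the genes named were chosen with earlier results of these data known. Genes were named as up to 8 of a list in its direction by size of log2 ratio, up to 4 in the other direction, defining members and the 25 highest and lowest genes overall. Promoters (250 bases before to 50 after the start; 10369 measured genes matched by symbol) came from RefSeq on GRCm38.p6 and were searched for 10 motifs in every list; those shown were chosen after the shares were seen. Where a gene had more than 1 listed start, the stretch with the most matches was printed. Near-identical genes (Defa, Tgtp, H2-Q, immunoglobulin and globin families) and genes with an antisense partner are uncertain, because how shared reads were counted is not given. Differences smaller than the counting interval were not detectable at this depth.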

Additional observations from a re-analysis of the deposited data

Results flagged for a closer look

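Some results went in opposite directions in the labelled knockout pair and in the WT pair. With 1 library a group the difference between the pairs was not tested. The B cell and plasma cell list had a median log2 ratio of -1.60 in the labelled knockout pair and 2.18 in the WT pair, and the type I interferon list had 1.89 and -2.01.

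Of B cell genes, Cr2 (the complement receptor CD21) had log2 ratios of -2.09 and 3.47 in the labelled knockout and WT pairs. Ighd had -2.28 and 3.56, and Pax5 had -2.0 and 3.22. Of interferon genes, Usp18 (which removes Isg15 from proteins) had 4.41 and -2.49. Ifi44 had 2.61 and -3.23, and the GTPase Gbp3 had 3.72 and -2.05.

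Of epithelial and defence genes, Retnlb (a goblet cell product) had log2 ratios of -3.61 and 4.67. The serum amyloids Saa1 and Saa2, close copies that are uncertain singly, had -3.25 and 2.29, and -4.05 and 2.17. Rbp2, a retinol carrier, had -3.36 and 2.16. The receptor Tnfrsf19 had 3.81 and -2.03.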

How the results depend on the processing

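With a pseudocount of 5 CPM in place of 1, 1408 genes in place of 2245 were higher, 1587 in place of 2532 were lower, and 24 lists in place of 39 had a median of at least 1 in size. Under the other planned settings and the added baseline these 3 counts stayed within 1.5 times. With library totals in place of TMM, 3274 genes were higher and 1831 lower, so that 64.1% of called genes were higher in place of 47.0%, and the median of all genes was 0.3. No list median of at least 1 in size changed direction under a planned setting, nor did any named gene called in both settings. Changes of sign in smaller medians and in genes not called were not counted. With untreated WT as baseline, which was added after the data were seen, 2 list medians of at least 1 in size reversed. B cell and plasma cell genes stood at 0.58 and pancreatic acinar genes at 0.23. Of the named genes called on both baselines, 4 reversed: Tgm3 stood at 3.66, Hoxb13 at 6.72, Il18 at 1.10 and Mptx1 at 4.03. No paired analysis was possible because each group has 1 library and the result comes from no test. Leaving out a replicate was not possible for the same reason.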

Other observations

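Genes were also summarised by chromosome. Over the autosomes and X the median log2 ratio in the labelled knockout pair ran from -0.08 (chromosome 7, 1095 genes) to 0.16 (chromosome 18, 413 genes). The median of all genes was 0.03.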
